A study of Rattus norvegicus with 12 samples.

Results

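The genes Atf3, Npy, Gal, Gap43, Vgf and Reg3b were taken as 6 genes known for their response to axon injury in sensory neurons. Each was measured by 1 gene-level summary of core probesets, here called a probeset, that carried only that gene symbol. The 6 genes were thus 6 of the 8260 such probesets in the deposited values. The genes were picked by symbol, with earlier results of these arrays known, so how many of them changed is a description of these 6 and not independent evidence. Gene expression was measured in single L5 dorsal root ganglia (DRG) from adult male Sprague Dawley rats, with 1 ganglion of 1 rat on each of 12 Affymetrix Rat Exon ST 1.0 arrays. In 6 rats local inflammation of the DRG (LID) was induced by depositing zymosan, particles of yeast cell wall that provoke innate immunity, in incomplete Freund's adjuvant over the ganglion. The other 6 rats were sham operated, with the foramen exposed and nothing injected, so the sham group does not control for the adjuvant alone. Tissue was collected on post-operative day 3, and no axons were cut in either group.

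When the axon of a sensory neuron is cut, the neuron changes its gene expression toward survival and regrowth. Atf3 is a stress-induced transcription factor that is widely used as a marker of injured neurons. Npy and Gal encode the peptides neuropeptide Y and galanin, Vgf encodes a granin-like protein that is cleaved to bioactive peptides, Reg3b encodes a secreted C-type lectin also known as pancreatitis-associated protein, and Gap43 encodes a growth cone phosphoprotein. The question here was which of these genes responded to inflammation of the ganglion without a nerve cut.

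A value gives, on the log2 scale, how far an array lay above or below the median of the 12 arrays for that probeset, because the deposited values were centred in this way. Values therefore carry no level of expression, and levels could not be compared between genes. LID was compared with sham in limma, and a gene was called higher or lower where the Benjamini-Hochberg adjusted p over all 8260 probesets was under 0.05. Over all probesets 19.4% were called, with 7.66% higher and 11.7% lower in LID, and the median difference was -0.02. The median of an array over all probesets ran from -0.04 to 0.02 in 11 arrays and was 0.09 in sham replicate 2.

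Of the 6 genes, 4 were upregulated in LID, none was downregulated and 2 did not pass the test. Reg3b rose 2.60-fold (95% confidence interval 1.73 to 3.90, n = 6 arrays per group, adjusted p = 0.00347), Npy 2.25-fold (1.72 to 2.95, adjusted p = 0.000722), Vgf 1.76-fold (1.46 to 2.11, adjusted p = 0.000688) and Atf3 1.75-fold (1.30 to 2.36, adjusted p = 0.0119). Gap43 was at 1.10-fold (0.960 to 1.25, adjusted p = 0.371) and Gal at 1.09-fold (0.917 to 1.29, adjusted p = 0.564). Among the differences of all 8260 probesets, ordered from the highest, Reg3b held rank 32, Npy 52, Vgf 112, Atf3 113, Gap43 1216 and Gal 1351. In exact two-sided permutation tests over the arrays, p was 0.00216 for Npy and for Vgf, the smallest value that this design allows. It was 0.00433 for Atf3, 0.00649 for Reg3b, 0.206 for Gap43 and 0.338 for Gal.

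**Figure D1:**
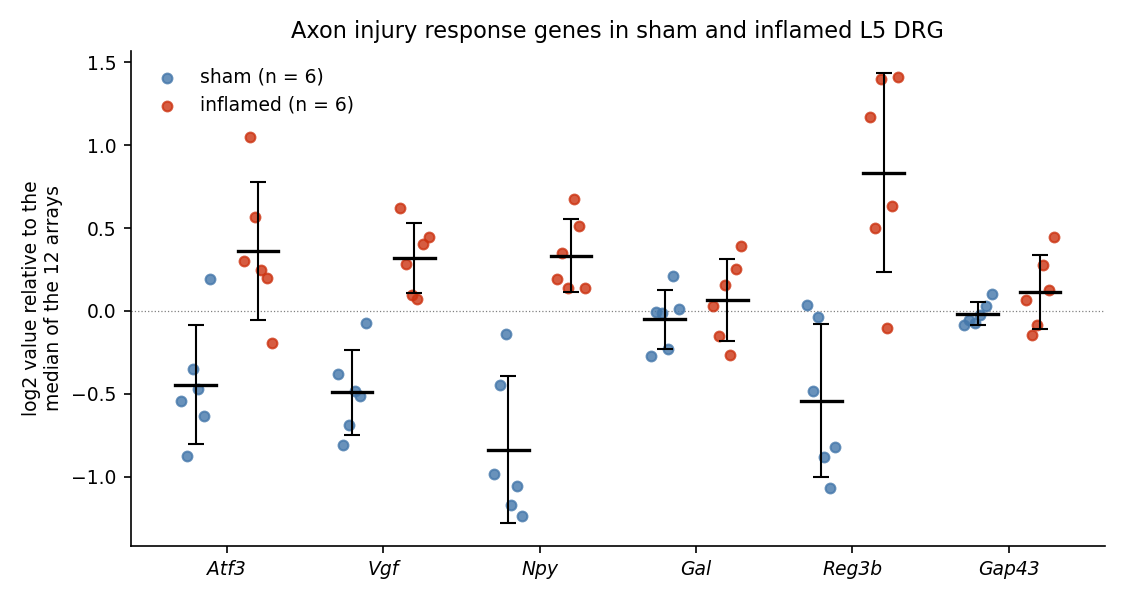
Values of the 6 genes in every array (vertical axis: log2 value relative to the median of the 12 arrays), with 1 point per array and the mean ± SD of each group (n = 6) as black lines. Npy and Vgf do not overlap between the groups. Atf3 overlaps through sham replicate 6 and LID replicate 6, and Reg3b through LID replicate 4 and sham replicates 1 and 3. Gal and Gap43 overlap more, with 2 and 3 LID arrays above every sham array.

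The transcription factor Atf3 was higher in most inflamed ganglia. The 6 sham arrays, in order of replicate number, were at -0.55, -0.87, -0.35, -0.47, -0.63 and 0.19, and the 6 LID arrays at 0.30, 1.05, 0.57, 0.24, 0.20 and -0.19. The groups overlapped through sham replicate 6 and LID replicate 6, and the other 5 LID arrays lay above every sham array. The call held in each of 12 fits that left out 1 array, with adjusted p from 0.00386 to 0.0293, and the log2 difference of 0.81 (standard error 0.20) was lowest, 0.67, without LID replicate 2.

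Atf3 binds DNA as a dimer with other proteins of the AP-1 and bZIP families, chiefly Jun. The array measured 7 such partner genes, of which 1 rose, 1 fell and 5 missed the threshold, with a median log2 difference of 0.16. That is 28.6% called, against 19.4% of all probesets. Jun itself rose 1.25-fold (1.08 to 1.45, adjusted p = 0.0334), from a sham range of -0.62 to 0.04 to a LID range of -0.01 to 0.31. This call rests on single arrays, since the adjusted p was between 0.0566 and 0.0768 without sham replicate 1, 3 or 5 or LID replicate 2, 3 or 4. Ddit3, a stress factor of the C/EBP family known as CHOP, fell by 0.31 in log2 value (standard error 0.05, adjusted p = 0.0016). Among 11 other transcription factors linked to axon regeneration, Stat3 rose 1.12-fold (1.06 to 1.18, adjusted p = 0.00468). Klf9, a factor that restrains axon growth, fell by 0.28 (standard error 0.06, adjusted p = 0.00339), and the remaining 9 missed the threshold. The share called among these 11 factors, 18.2%, was near the 19.4% of all probesets.

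Vgf was higher in every LID array than in any sham array. Sham values were -0.38, -0.81, -0.69, -0.49, -0.51 and -0.07, and LID values were 0.62, 0.29, 0.10, 0.07, 0.41 and 0.45. The lack of overlap was shared by 10.0% of all probesets, or 3.62% with LID as the higher group, and Vgf and Npy were the 2 of the 6 genes that showed it. The log2 difference of 0.81 had a standard error of 0.12, against 0.20 for the equally large difference of Atf3. The VGF protein is stored with the granins in dense-core vesicles and cut by prohormone convertases. Of 13 genes for granins and peptide processing, 1 rose, 3 fell and 9 missed the threshold (median -0.02). That is 30.8% called, against 19.4% of all probesets. The granins Chgb and Chga fell by 0.40 (standard error 0.09, adjusted p = 0.00748) and 0.39 (standard error 0.06, adjusted p = 0.0011), and Scg5, the chaperone of the convertase PC2, fell by 0.25 (standard error 0.06, adjusted p = 0.0115). Furin, a convertase of the secretory pathway, rose 1.18-fold (1.09 to 1.28, adjusted p = 0.00675).

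Npy, like Vgf, was higher in every LID array than in any sham array. Sham values were -0.98, -0.45, -0.14, -1.17, -1.05 and -1.24, and LID values were 0.19, 0.35, 0.14, 0.67, 0.51 and 0.14. Sham arrays fell into 4 low values and 2 higher ones, replicates 2 and 3, while the LID arrays lay within a range of 0.53. The log2 difference was 1.17 (standard error 0.18), and it ran from 1.09 to 1.31 when single arrays were left out.

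Gal, the peptide that shares much of its injury response with Npy after nerve section, was spread alike in both groups. Sham values were -0.27, -0.01, -0.01, -0.23, 0.21 and 0.01, and LID values were 0.03, -0.15, 0.16, -0.26, 0.25 and 0.39. The highest array was LID replicate 6 and the lowest was sham replicate 1, but LID replicate 4 lay almost as low. The interval of the fold change reached from 0.917 to 1.29 and so included both a small fall and a small rise.

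Promoter sequences from RefSeq (build GRCr8) were read for Vgf, Gal, Npy and Reg3b, and those of Atf3 and Gap43 were not used here. They are shown because Atf3 and Jun bind cAMP response elements and AP-1 sites, and Vgf and Gal differ in their response here. The 250 bases before the start site are given for Vgf (chr12:25277021-25277270, minus strand) and Gal (chr1:210084573-210084822, minus strand), with matches in capitals.
Vgf: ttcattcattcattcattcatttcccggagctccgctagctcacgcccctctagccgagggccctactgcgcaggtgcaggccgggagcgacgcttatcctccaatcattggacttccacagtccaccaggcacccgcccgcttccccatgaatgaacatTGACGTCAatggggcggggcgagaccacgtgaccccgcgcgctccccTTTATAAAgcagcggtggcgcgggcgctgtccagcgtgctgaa
Gal: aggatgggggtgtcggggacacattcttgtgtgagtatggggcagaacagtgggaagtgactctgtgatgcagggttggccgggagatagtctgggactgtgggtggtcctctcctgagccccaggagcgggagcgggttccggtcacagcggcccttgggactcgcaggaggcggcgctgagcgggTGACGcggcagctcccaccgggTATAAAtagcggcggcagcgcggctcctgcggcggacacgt
In Vgf the capitals mark the full cAMP response element TGACGTCA, 90 bases before the start, and a TATA box, TATAAA, which matches on both strands there. In Gal they mark TGACG, the core of that element, 63 bases before the start, and a TATA box 41 bases before it. The search covered both strands for these motifs, for the AP-1 site TGANTCA and for the STAT-type site TTCNNNGAA. The core lies within the full element, so a match to the latter is also counted for the former. Of 33469 rat promoter windows of this length, 1.59% held the full element, 18.2% its core, 6.34% the AP-1 site, 7.67% the STAT-type site and 12.9% the TATA box. The window of Npy (chr4:80211861-80212110, plus strand) held none of these letters. A match is a description of the sequence and not a binding site that was measured.

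Receptors of the peptides changed in both directions. The array measured 8 genes for receptors or binding proteins of neuropeptide Y, galanin, VGF peptides and Reg proteins. Of these 8 genes, 2 rose, 2 fell and 4 missed the threshold. Among all probesets 19.4% were called, with 7.66% higher and 11.7% lower. The list is short and was not tested as a set, so its counts describe these 8 genes only. Galr1, an inhibitory galanin receptor, fell by 0.48 (standard error 0.09, adjusted p = 0.00362), from sham values of 0.00, 0.40, 0.18, 0.31, 0.11 and 0.26 to LID values of -0.00, -0.40, -0.58, -0.16, -0.28 and -0.16. LID replicate 1 lay just below sham replicate 1, so that the groups did not overlap. Galr2, the galanin receptor linked to neurite growth and survival, rose 1.30-fold (1.19 to 1.42, adjusted p = 0.00082), with sham between -0.34 and -0.07 and LID between 0.07 and 0.27. The 2 measured galanin receptors thus moved in opposite directions while the peptide itself did not pass the test. Galr3 and the neuropeptide Y receptor Npy2r were also listed, but had no probeset that carried only their symbol. The neuropeptide Y receptors Npy1r, Npy4r and Npy5r had log2 differences of 0.03, 0.04 and -0.15, none past the threshold (adjusted p = 0.917, 0.87 and 0.17). The first 2 were within a standard error of 0, at 0.11 and 0.10, and turned negative without some single arrays.

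**Figure D2:**
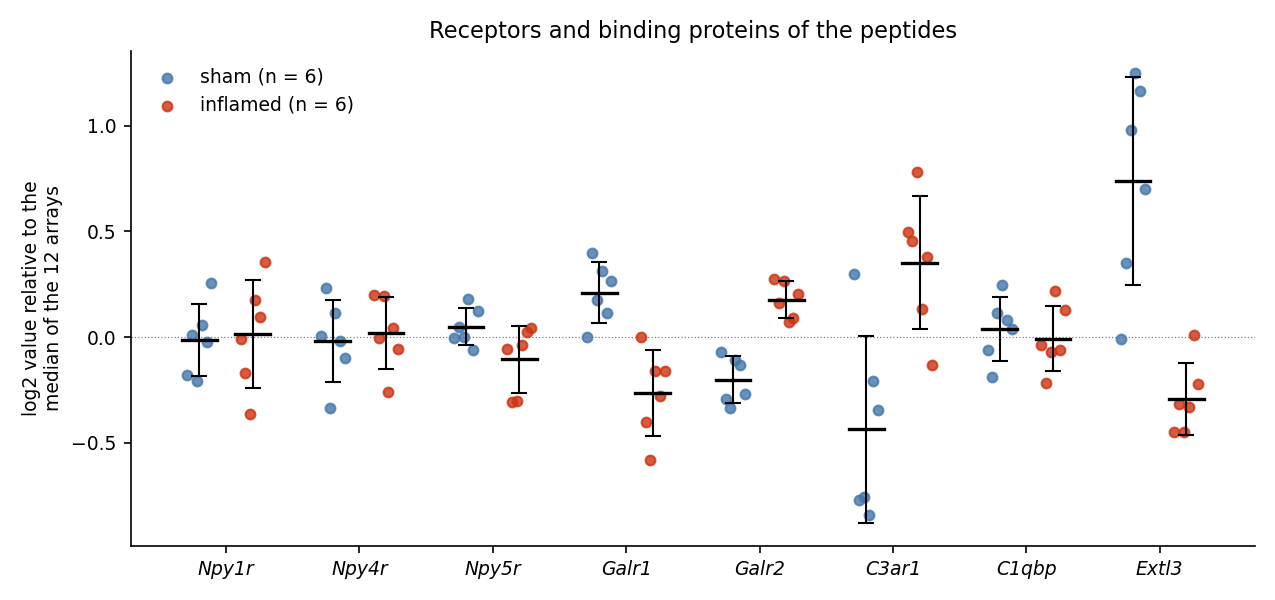
Receptors and binding proteins of the peptides in every array (vertical axis: log2 value relative to the median of the 12 arrays), with the mean ± SD of each group (n = 6) as black lines. Galr1 and Extl3 are lower and Galr2 is higher in LID, and the neuropeptide Y receptors overlap between the groups.

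C3ar1, the receptor of the complement fragment C3a, which also binds the VGF peptide TLQP-21 in rodents, rose 1.73-fold (1.29 to 2.32, adjusted p = 0.013). It overlapped through sham replicate 1, at 0.30, and LID replicate 6, at -0.13, and the call was lost with sham replicate 2 and LID replicate 2 both left out (adjusted p = 0.0529). C1qbp, another binding protein of that peptide, had a log2 difference of -0.04 (adjusted p = 0.808). Extl3, a glycosyltransferase of heparan sulfate synthesis that also serves as a receptor for Reg proteins, fell by 1.03 (standard error 0.19, adjusted p = 0.00215). Its sham values were -0.01, 0.35, 0.98, 1.25, 1.17 and 0.70 and its LID values -0.45, -0.32, -0.45, -0.33, 0.01 and -0.22, so that LID replicate 5 lay just above sham replicate 1.

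Reg3b had the highest fold change and the widest spread of the 6 genes. Sham values were 0.04, -0.49, -0.04, -0.88, -1.07 and -0.82, and LID values were 1.17, 0.50, 1.40, -0.10, 0.63 and 1.41. LID replicate 4 lay below sham replicates 1 and 3, and the other 5 LID arrays lay above every sham array. The within-group SD of 0.53 was above that of 99.6% of all probesets. The log2 difference of 1.38 (standard error 0.27) ran from 1.26 to 1.57 with single arrays left out, highest without LID replicate 4.

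In the RefSeq order of genes along rat chromosome 4, Reg3b, Reg3a, Reg1a and Reg3g are neighbors in a single cluster, and all 4 genes were higher in LID. Reg3g rose 2.46-fold (1.98 to 3.06, adjusted p = 8.14e-05) and Reg3a 2.25-fold (1.88 to 2.69, adjusted p = 4.24e-05). Reg1a, chosen after its values were seen, rose 1.36-fold (1.19 to 1.55, adjusted p = 0.00358). Unlike Reg3b, these 3 did not overlap between the groups, with sham between -0.67 and -0.33 and LID between 0.33 and 1.25 for Reg3g, and sham between -0.77 and -0.27 and LID between 0.27 and 1.00 for Reg3a. LID replicate 4, low for Reg3b, was at 0.62 for Reg3a and 0.77 for Reg3g, and LID replicate 6 was the highest array for all 3 Reg3 genes. The Reg genes are close relatives, so part of the signal may be shared between their probesets, and the 4 rises are not independent.

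**Figure D3:**
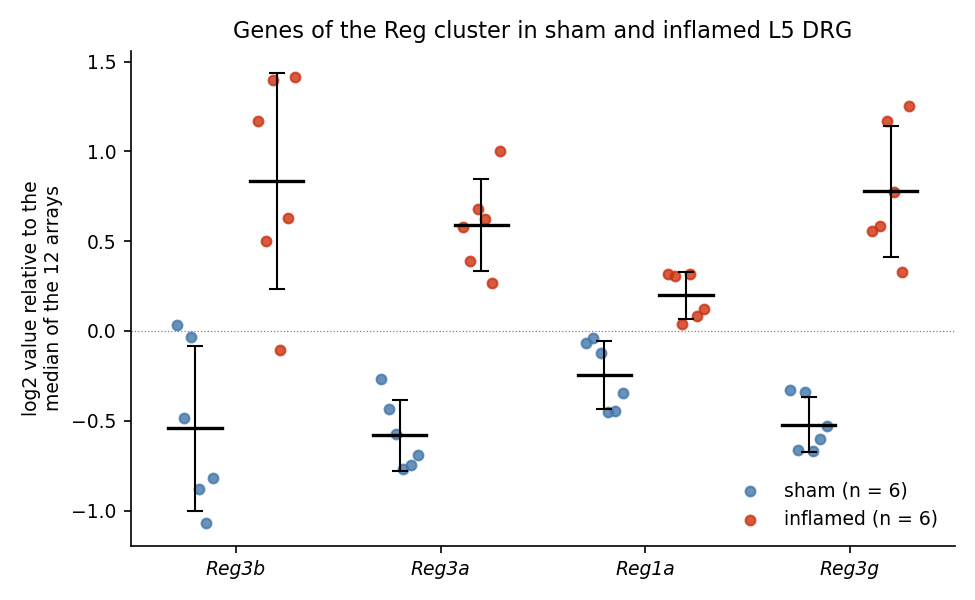
The 4 genes of the Reg cluster in every array (vertical axis: log2 value relative to the median of the 12 arrays), with the mean ± SD of each group (n = 6) as black lines. Reg3a, Reg1a and Reg3g separate the groups fully, and Reg3b does so except for LID replicate 4 and sham replicates 1 and 3.

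The 250 bases before the start of Reg3b (chr4:112419526-112419775, plus strand) and Reg3g (chr4:112484739-112484988, minus strand) are shown because both genes of this cluster rose in LID.
Reg3b: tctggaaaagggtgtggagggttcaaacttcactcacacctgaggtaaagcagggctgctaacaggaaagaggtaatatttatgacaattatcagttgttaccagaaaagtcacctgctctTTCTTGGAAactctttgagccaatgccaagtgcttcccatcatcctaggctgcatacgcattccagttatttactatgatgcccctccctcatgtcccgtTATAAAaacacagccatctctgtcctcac
Reg3g: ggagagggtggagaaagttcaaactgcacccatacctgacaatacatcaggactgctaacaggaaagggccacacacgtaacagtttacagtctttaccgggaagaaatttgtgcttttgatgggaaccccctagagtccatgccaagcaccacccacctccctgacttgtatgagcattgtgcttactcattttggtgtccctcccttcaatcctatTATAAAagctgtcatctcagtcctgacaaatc
They were 65.4% identical in a global alignment, against 52.7% for Reg3b and Reg1a of the same cluster and 45.4 to 55.6% for pairs of promoters outside the cluster or with 1 gene outside it. The capitals mark a TATA box in both, 29 bases before the start in Reg3b and 32 in Reg3g, and in Reg3b also the STAT-type letters TTCTTGGAA, which begin 129 bases before the start. Reg3g held no match to TTCNNNGAA in this window. The window of Reg1a, which is not printed, held a match, TTCTGGGAA, that begins 242 bases before the start.

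Reg genes are known to be induced by cytokines that signal through the shared receptor subunit gp130, such as Lif and Il6. Of 14 genes of this pathway, 7 rose, 1 fell and 6 missed the threshold, with a median log2 difference of 0.25. That is 57.1% called, against 19.4% of all probesets. Stat3, given above, belongs to this pathway as well. The oncostatin M receptor Osmr rose 1.49-fold (1.23 to 1.80, adjusted p = 0.0072), the kinase Jak2 1.43-fold (1.29 to 1.59, adjusted p = 0.000344) and the ligand Lif 1.37-fold (1.16 to 1.63, adjusted p = 0.014). Osmr and Jak2 did not overlap between the groups, and both were lowest in sham replicate 2, at -1.06 and -0.51. The call of Lif was lost with sham replicate 2 and LID replicate 2 both left out (adjusted p = 0.054). Cntfr, the receptor subunit for ciliary neurotrophic factor, fell by 0.33 (standard error 0.07, adjusted p = 0.00426).

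The growth cone protein Gap43 differed less between groups than within LID. Sham values were -0.08, -0.06, -0.07, -0.03, 0.03 and 0.10, an SD of 0.07, and LID values were 0.07, -0.15, -0.08, 0.28, 0.12 and 0.45, an SD of 0.22. LID replicate 6 was the highest of the 12 arrays and LID replicate 2 the lowest. The log2 difference was 0.13 (95% confidence interval -0.06 to 0.32). Of 11 other genes for growth cone and axon cytoskeleton proteins, none rose, 2 fell and 9 missed the threshold, with a median of -0.05. The share called, 18.2%, was near the 19.4% of all probesets. The adhesion molecule Ncam1 fell by 0.33 (standard error 0.06, adjusted p = 0.00283). Crmp1, a collapsin response mediator, fell by 0.17 (standard error 0.05, adjusted p = 0.0461), a call that was lost without any 1 of 8 arrays and after each array was centred on its median (adjusted p = 0.11).

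The changes of the 6 genes were also compared with each other, since a gene that passes the test and one that does not need not differ. The paper found a wider range of fold changes by qPCR than on the array. How evenly the 6 probesets track RNA is unknown here, so each pair compares changes in array values only. For each of 15 pairs the difference between both genes was taken in every array and compared between the groups with an exact two-sided permutation test. After adjustment over the 15 pairs, 6 passed. Reg3b changed by 1.26 more than Gal (log2, 95% interval from the same test 0.602 to 1.91, adjusted p = 0.013) and by 1.25 more than Gap43 (0.491 to 1.99, adjusted p = 0.0216). Npy changed by 1.05 more than Gal (0.489 to 1.62, adjusted p = 0.013) and by 1.04 more than Gap43 (0.525 to 1.55, adjusted p = 0.013). Vgf changed by 0.69 more than Gal (0.292 to 1.08, adjusted p = 0.013) and by 0.68 more than Gap43 (0.352 to 1.01, adjusted p = 0.013).

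The change of Atf3 was larger than that of Gal by 0.69 (0.0234 to 1.36, permutation p = 0.0433) and than that of Gap43 by 0.68 (0.0355 to 1.30, permutation p = 0.0368), but neither passed after adjustment (adjusted p = 0.0812 and 0.0788). Both passed without sham replicate 6 (adjusted p = 0.0446) or without LID replicate 6 (adjusted p = 0.0186), the arrays through which the groups of Atf3 overlapped. Without any other single array neither passed, with adjusted p up to 0.158 (without sham replicate 2 or 5), and a second quantile normalization gave 0.162. Among the 4 upregulated genes no pair passed, and the intervals were wide, from -0.642 to 1.05 for Reg3b against Npy and from -0.533 to 0.544 for Vgf against Atf3. The interval for Gap43 against Gal, -0.240 to 0.297, was the narrowest of those that included 0.

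**Figure D4:**
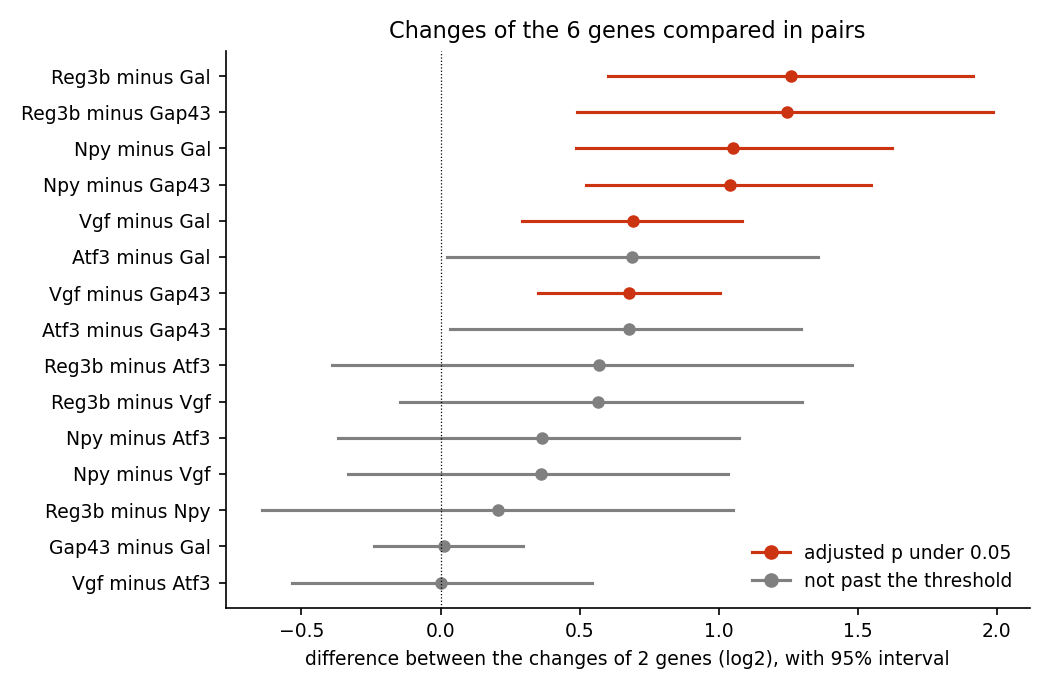
Difference between the LID minus sham changes of 2 genes (horizontal axis, log2) for each of the 15 pairs, with 95% intervals from the exact permutation test. The 6 pairs in red passed an adjusted p of 0.05, and the pairs of Atf3 with Gal and Gap43 have intervals above 0 that did not pass after adjustment.

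Which inflamed ganglion was highest differed from gene to gene. It was LID replicate 2 for Atf3, replicate 4 for Npy, replicate 1 for Vgf, and replicate 6 for Gal, Gap43 and Reg3b. LID replicate 6 held the lowest LID value of Atf3, and LID replicate 2, highest for Atf3, held the lowest value of Gap43. With the group means taken out, the genes whose pattern over the 12 arrays was most like that of Atf3 were Dusp6, Nr4a1 and Hnrnpl (Pearson r = 0.91, 0.90 and 0.89). For Vgf they were Usb1, Cd82 and Mrpl38 (r = 0.94, 0.93 and 0.93), for Npy Serpinb2, Cspg5 and Vom1r49 (0.91, 0.87 and 0.85) and for Gap43 Mapk9, Akap12 and Arf3 (0.98, 0.94 and 0.91). For Gal they were Bsg, Ttc5 and Or10n7 (0.82, 0.80 and 0.78). For Reg3b they were the olfactory receptors Or5c1, Or5p4 and Or5ak24 (0.87, 0.86 and 0.82), ahead of its cluster neighbors Reg3a (0.62) and Reg3g (0.58). These are the highest values among 7603 probesets and 12 arrays, and they serve only to describe the pattern. None of the 6 genes was among the most alike of another, and for Npy and Vgf, both fully separated between the groups, r was -0.65.

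Of 19 other genes that rise in sensory neurons after axotomy, 9 rose in LID, none fell and 10 missed the threshold, with a median log2 difference of 0.18. This is 47.4% called against 19.4% of all probesets, and 4 of the 9 were Reg3a, Reg3g, Reg1a and Fgf2. The growth factor Fgf2 rose 1.84-fold (1.58 to 2.13, adjusted p = 8.59e-05), with sham between -0.51 and -0.20 and LID between 0.20 and 0.86. Of 18 genes known to decline after axotomy, 3 fell, none rose and 15 missed the threshold (median -0.09). The share called, 16.7%, was no higher than the 19.4% of all probesets, and 7 of the 18 differences were above 0. Gfra2, the neurturin receptor of nonpeptidergic neurons, fell by 0.69 (standard error 0.16, adjusted p = 0.0102), and Mrgprd, a receptor of the same neurons, by 0.49 (standard error 0.13, adjusted p = 0.0178). The mu opioid receptor Oprm1 fell by 0.32 (standard error 0.09, adjusted p = 0.0264), which was lost without sham replicate 3, 4 or 5 or LID replicate 3 (adjusted p from 0.0549 to 0.063).

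**Figure D5:**
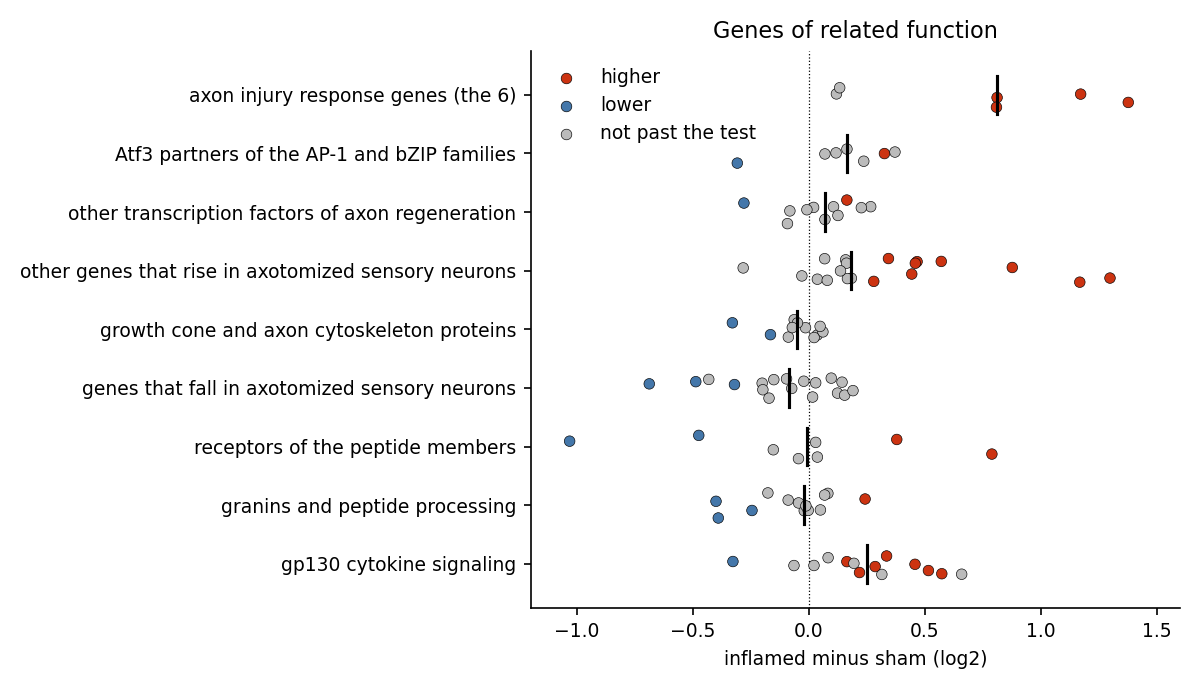
Difference between LID and sham (horizontal axis, log2) for each measured gene of the 6 and of 8 lists of related function, with 1 point per probeset and a black line at each median. Points in red or blue passed an adjusted p of 0.05, with 4 of the 6 genes and 9 of 19 other genes that rise after axotomy in red.

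Each sample was a whole ganglion, so a change in the number of cells of a type and a change in RNA per cell cannot be told apart. With 19.4% of all probesets called and 7.66% higher, a short marker list without a call does not show an unchanged cell type. Of 8 markers of sensory neurons none passed the test, and their mean ran from -0.04 to 0.04 in sham and from -0.09 to 0.07 in LID. The one with the smallest p was the synaptic protein Snap25, with a log2 difference of -0.19 (adjusted p = 0.0858). Snap25 was called lower with array weights (adjusted p = 0.022) and without sham replicate 2 (0.0468) or LID replicate 6 (0.0461). All 6 measured of 11 listed markers of macrophages and monocytes rose, and their mean ran from -0.94 to -0.12 in sham and from 0.21 to 0.96 in LID, led by Lyz2 (2.82-fold), Itgam (2.44-fold) and C1qa (2.43-fold). Of 6 markers of T and NK cells 3 rose (Klrk1 at 3.29-fold, Nkg7 at 2.24-fold and Prf1 at 1.26-fold), and the mean ran from -0.43 to -0.09 in sham and from 0.10 to 0.57 in LID. The T cell markers Cd3d, Cd4 and Cd8a of this list missed the threshold. Their log2 differences were 0.06, 0.39 and 0.20 (adjusted p = 0.694, 0.0576 and 0.336). Of 7 markers of satellite glia, Gfap rose 2.49-fold, Gjb6, Slc1a3 and Kcnj10 fell by 0.98, 0.48 and 0.42, and the mean ran from -0.13 to 0.10 in sham and from -0.34 to 0.08 in LID. None of 7 probesets for Schwann cell markers passed the test (mean from -0.04 to 0.18 in sham and from -0.22 to 0.22 in LID; smallest adjusted p = 0.176, for Mbp). None of 4 skeletal muscle markers passed either (mean from -0.11 to 0.16 in sham and from -0.10 to 0.11 in LID; smallest adjusted p = 0.0668, for Tnnt3). Tnnt3 was called higher after a second quantile normalization (adjusted p = 0.0169), with each array centred on its median (0.0307), with array weights (0.00748) and without sham replicate 2 (0.0108). The part of immune cells and glia in the rises of Reg3b, Npy, Vgf and Atf3 was not tested, and because values are centred, no marker could be said to be absent.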

How the data were processed

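Gene expression was measured in 12 L5 DRG, 6 sham and 6 LID, each from 1 rat and on 1 array. The deposited log2 values were made by the authors: core probesets were summarized at gene level with RMA in GeneSpring, quantile normalized, and each was centred on its median over the 12 arrays. The centring removes the level of expression, so signal over background is unknown, no filter on low expression could be applied, and the trended moderation that needs a level was not run. The log2 scale is that of the methods, and the direction is LID minus sham. The labels name the genome build rn4, which was not used for coordinates. RNA was isolated with 1 of 2 kits, and which sample had which kit is not given in the sources used here.

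Of the 8260 probesets, 7603 carried 1 gene symbol, 409 several and 248 none. All were fitted in limma 3.58.1 under R 4.3.3 (with statmod 1.5.0 for the random replicate block), with empirical Bayes moderation, two-sided, and Benjamini-Hochberg adjustment. Single genes and pairs of genes were compared by exact permutation over the 924 assignments of 12 arrays to 2 groups. Python 3.11.15, numpy 2.4.6, pandas 2.3.3, scipy 1.17.1 and biopython 1.88 were used for the rest, and the number of arrays limits the precision. The fit was tested on simulated data with independent normal values, so that test does not cover variation shared between probesets or arrays. Same-numbered sham and LID arrays were not treated as pairs in the main fit.

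The 6 genes and the gene lists were chosen with earlier results of these data known, so their counts are not independent evidence. All 6 genes and all measured receptors are named. Of each other list at most 3 genes per direction are named, those with the largest difference among the called genes, or the gene with the smallest p where none was called. The 3 genes most like each of the 6 are also named. One Reg gene was named after its values were seen. Outside this rule, Cd3d, Cd4 and Cd8a are named as the uncalled markers of T and NK cells. The other measured genes of the lists were fitted and counted but are not named. No list was tested as a set.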

Additional observations from a re-analysis of the deposited data

Results flagged for a closer look

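No array of the 6 axon injury response genes stood apart from the rest of its group. Over the 66 genes that the naming rule covers, 132 groups of 6 arrays were examined for 1 array far from the others, and 5 did, where chance alone gives about 1 in 20 groups. Osmr and Jak2 were both low in sham replicate 2, at -1.06 and -0.51, against -0.39 and -0.26 in the nearest sham array. Nr4a1, among the 3 genes most like Atf3 over the arrays, was high in sham replicate 6, at 0.93 against 0.02 in the nearest sham array. Sham replicate 6 was also the highest sham array of Atf3. Klf9 was low in LID replicate 6, at -0.34 against -0.14, and Gfap was high in LID replicate 1, at 0.82 against 0.54.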

How the results depend on the processing

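The 4 upregulated genes kept their direction and their call, and Gal and Gap43 stayed short of the threshold, under each alternative that kept the threshold and Benjamini-Hochberg adjustment and without any single array. With Holm adjustment none of the 6 passed: the differences were unchanged at 1.38 for Reg3b, 1.17 for Npy and 0.81 for Vgf and Atf3, with adjusted p of 1, 0.144, 0.13 and 1. At an adjusted p under 0.01, Atf3 (0.81, adjusted p = 0.0119) did not pass. Over all probesets the calls fell to 66 higher and 66 lower with Holm adjustment and to 334 and 498 at 0.01, from 633 and 968. They came to 742 and 842 after a second quantile normalization and to 701 and 795 with each array centred on its median.

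Counts in the small lists moved with the settings. The Atf3 partners called higher were 3 after a second quantile normalization, with each array centred on its median and with the random replicate block. The count was 2 with array weights, without sham replicates 1 and 2, and without olfactory, vomeronasal and trace amine receptor probesets. It was 0 at an adjusted p under 0.01 and ran from 0 to 2 with single arrays left out. The other regeneration factors called higher were 2 after both normalizations and both replicate blocks, and 1 to 2 with single arrays left out. The growth cone genes called lower were 1 after both normalizations, at 0.01 and without sham replicate 2 and LID replicate 2 or sham replicates 1 and 2, and 1 to 2 with single arrays left out. At 0.01, 1 receptor, 4 gp130 genes and none of the Atf3 partners were higher, and 0 of the genes that fall after axotomy were lower; without both replicates numbered 2, 1 receptor was higher. With Holm adjustment 3 genes that rise after axotomy and 1 gp130 gene were called higher, and the other 6 lists of related function had 0 in either direction.

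Among the pairs, with single arrays left out, Atf3 minus Gal ran from 0.51 to 0.87, Atf3 minus Gap43 from 0.49 to 0.85, Atf3 minus Vgf from -0.15 to 0.13 and Gal minus Gap43 from -0.071 to 0.085; the last 2 changed sign. Npy1r ran from -0.040 to 0.105, Npy4r from -0.027 to 0.092, Serpinb2 from -0.049 to 0.0049 and Or10n7 from -0.064 to 0.0054. Without sham replicates 1 and 2 Npy1r was at -0.0067, and without both replicates numbered 2 Nr4a1 was at -0.031; leaving out 2 arrays was chosen after the data were seen. Causes were not tested.

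Same-numbered arrays correlated between -0.15 and 0.40 in their deviations from the group means. Of 6 sham arrays, 2 were most like the LID array of their own number. With the replicate number as a random block, the estimated correlation was 0.228, and 785 probesets were higher and 1205 lower. The labels do not say whether same-numbered arrays share a batch, so whether the numbers pair the samples could not be settled. With the replicate block, 675 probesets were higher and 1005 lower, and the adjusted p was 0.0442 for Atf3 and 0.0042 for Npy, while Jun (0.0639) and Dusp6 (0.0691) no longer passed and no other named gene lost its call. Of the markers, Snap25 (0.0187) was then called lower and Tnnt3 (0.0348) higher, as both were with the random block (0.0326 and 0.0288). Without sham replicates 1 and 2, Snap25 (0.0176) and Mbp (0.0468) were called lower and Tnnt3 (0.0145) higher, and Tnnt3 was also called without both replicates numbered 2 (0.0194). The number of arrays sets the width of the intervals, and signal over background is unknown.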
